A study of Mus musculus with 16 samples.

Results

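The platelet-derived growth factor (PDGF) family was followed through the cells of the mouse thoracic aorta. Its 6 genes, the ligands Pdgfa, Pdgfb, Pdgfc and Pdgfd and the receptors Pdgfra and Pdgfrb, were taken by their symbols from the 31055 features of the deposited matrices, and each symbol matched 1 feature. PDGF chains act as secreted dimers that bind receptor tyrosine kinases and drive proliferation and migration of mesenchymal cells. PDGF-A and PDGF-C bind the alpha receptor, PDGF-B binds both receptors and PDGF-D binds mainly the beta receptor. In arteries, PDGF-B from endothelium is known for recruiting mural cells, meaning vascular smooth muscle cells (VSMCs) and pericytes, while the alpha receptor is a usual marker of fibroblasts.

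The study asked how loss of Smad3, which carries TGF-beta signals to the nucleus, changes the aortic transcriptome before and during dilation. All mice were males of the 129S6/SvEv strain that carried Myh11-CreER, a tamoxifen-inducible recombinase on the Y chromosome driven by a smooth muscle promoter, and all received tamoxifen at 6 weeks of age. Controls were Smad3+/+ and the others, called Smad3SmKO, were Smad3lox/lox, some of either with the EGFP-L10a tracer. Aortas were taken 10 weeks after deletion (2 Smad3+/+ libraries and 2 labelled Smad3SmKO) or 18 weeks after it (5 and 7). The tissue ran from the aortic root to the branch of the left subclavian artery, and nucleated cells that excluded a dead-cell dye were sorted and sequenced with 10x 3′ v3 chemistry, in which molecules are told apart by random tags, the unique molecular identifiers (UMIs). Each library was made from 1 mouse, so p-values measure the spread between mice, with whatever library preparation added to it.

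The 16 libraries held 66349 barcodes and from 12539539 to 52843031 UMIs each. The study's limits on genes, UMIs and mitochondrial share kept 50858 cells, from 631 to 6497 per library, with a median of 4528 to 21884 UMIs per cell. Cells were gated on UMIs. VSMCs had at least 5 UMIs of Myh11, a smooth muscle myosin, and more Myh11 than Dcn, which encodes the matrix proteoglycan decorin. Fibroblasts had at least 5 of Dcn and more Dcn than Myh11, endothelial cells at least 2 of Pecam1 plus Cdh5, and leukocytes at least 2 of Ptprc plus Tyrobp. A cell was counted only if it met exactly 1 gate, which gave 8648 VSMCs, 33954 fibroblasts, 1226 endothelial cells and 2946 leukocytes, while 4.80% of cells met more than 1 gate and 3.23% met none. The gates held their own markers, lists of 8 genes each that the gates did not use. The VSMC list had a median of 52931 UMIs per 1000000 UMIs of the gate's sum (CPM) in VSMCs against 2096 in fibroblasts, and the fibroblast list 22896 in fibroblasts against 2045 in VSMCs. The endothelial list had 4250 in endothelial cells against 115 in fibroblasts, and the leukocyte list 34460 in leukocytes against 167 in fibroblasts.

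Several libraries went against a label or stood apart. Smad3 RNA in VSMCs was not detectably lower in the libraries labelled Smad3SmKO (log2 fold change 0.15, SE 0.36, at 18 weeks), and whether the 3′ tags lie in the deleted part is not given in the sources used here, so this checks nothing. The tracer label and the presence of GFP UMIs disagreed in 4 libraries, both labelled Smad3SmKO at 10 weeks and Smad3+/+ replicates 4 and 5 at 18 weeks. Of 59572 distinct deposited barcodes, 5157 were in more than 1 library, 3507 of them shared by those Smad3+/+ replicates 4 and 5, but among kept cells it was 315 of 50541. All libraries of 10 weeks formed batch 4, so week and batch cannot be told apart, and batch 5 held only libraries labelled Smad3SmKO. In the fibroblast gate of the library labelled Smad3SmKO, 18 weeks, replicate 7 (192 cells), the VSMC list reached 11764 CPM, against 536 to 3441 in the other 15 libraries, and the cardiac muscle list 239 against 10.8 to 61.1. Fibroblast levels below are therefore also given without it, and the part of those RNAs in the results was not tested.

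Because the labelled genotype removes a Smad protein, the 250 bases before each RefSeq start site (GRCm38.p6) were read for CAGAC, the core of Smad binding elements, on either strand. Windows were held for 4 members, with 2 starts for Pdgfa. The windows of Pdgfc, Pdgfd and Pdgfra held the motif and are shown 5′ to 3′ on the gene's strand, with CAGAC or its complement GTCTG in capitals. They span chr3:81036166-81036415, chr9:6168236-6168485 and chr5:75152001-75152250, all plus strand.
Pdgfc: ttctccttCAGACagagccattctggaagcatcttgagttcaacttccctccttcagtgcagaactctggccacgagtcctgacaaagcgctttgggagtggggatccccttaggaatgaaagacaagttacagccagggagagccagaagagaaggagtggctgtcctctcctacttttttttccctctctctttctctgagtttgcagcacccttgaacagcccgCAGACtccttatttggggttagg
Pdgfd: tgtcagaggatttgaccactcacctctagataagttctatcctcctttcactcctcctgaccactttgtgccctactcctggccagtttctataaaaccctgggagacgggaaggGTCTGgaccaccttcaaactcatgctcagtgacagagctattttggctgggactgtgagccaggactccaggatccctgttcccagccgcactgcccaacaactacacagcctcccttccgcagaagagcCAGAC
Pdgfra: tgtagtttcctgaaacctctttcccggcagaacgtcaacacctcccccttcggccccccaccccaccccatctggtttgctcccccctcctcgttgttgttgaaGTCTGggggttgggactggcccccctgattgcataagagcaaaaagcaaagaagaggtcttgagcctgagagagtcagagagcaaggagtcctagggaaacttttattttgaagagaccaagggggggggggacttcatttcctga
Pdgfc had 2 matches, starting 242 and 23 bases before the start site, Pdgfd 2, at 135 and 5 bases, and Pdgfra 1, at 146 bases. Pdgfa had none in either window. CAGAC on either strand was in 13861 of 32851 such windows (42.2%), so a match sets no member apart. The palindrome GTCTAGAC, in 0.167% of windows, was in none of the members'. A CArG box, the element of serum response factor, was found in 1.47% of windows and in 1 member, Pdgfc, 17 bases before its start. A match of letters is a description and not a binding site.

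In the mouse genome build mm10 the family lay on 5 chromosomes, each member in 1 protein-coding gene. Pdgfa is on chromosome 5 from 138976014 to 138997370, minus strand, and Pdgfra is on the same chromosome from 75152292 to 75198215, plus strand. Pdgfb is on chromosome 15 from 79995874 to 80014977, minus strand, and Pdgfc on chromosome 3 from 81036416 to 81214040, plus strand. Pdgfd is on chromosome 9 from 6168584 to 6378850 and Pdgfrb on chromosome 18 from 61045150 to 61085061, both plus strand. Counting over the whole gene does not separate splice forms, such as the long and short forms of PDGF-A.

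Levels by cell type were compared first, in 63 sums of UMIs (1 per library and gate, with at least 10 cells), with the library as a block. Levels are given as CPM of the gate's own UMIs, so they say how a gene's share of RNA differed between gates, not how many molecules an aorta held. Endothelial values rest on 15 libraries, because replicate 7 of the 18-week Smad3SmKO group had 3 endothelial cells. Log2 fold changes, their standard errors (SE) and adjusted p-values are from edgeR's quasi-likelihood test with Benjamini-Hochberg adjustment over 11149 genes, and a gene was called when its adjusted p was under 0.05.

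Between VSMCs and fibroblasts, 6 of 6 members were called, the 4 ligands higher in VSMCs and the 2 receptors higher in fibroblasts. Large shares of all genes passed the same test, 39% higher in fibroblasts and 29% higher in VSMCs, so the call itself sets no member apart and the sizes carry the description. Without replicate 7 of the 18-week Smad3SmKO group 6 of 6 were called as well, with log2 differences of fibroblasts minus VSMCs of -2.05 for Pdgfa, -3.30 for Pdgfb, -0.997 for Pdgfc, -1.23 for Pdgfd, 5.48 for Pdgfra and 0.88 for Pdgfrb, against -1.84, -2.95, -0.76, -1.21, 5.59 and 0.92 with it. Leaving out replicate 7 also moved the reference of the TMM scaling from an endothelial to a fibroblast sum, so these shifts are not those of the library alone. Leaving out each library in turn gave 5.48 to 5.57 for Pdgfra and 0.83 to 0.90 for Pdgfrb. Between endothelial cells and VSMCs 6 of 6 were called, Pdgfb and Pdgfra higher in endothelium and 4 higher in VSMCs (33.2% and 32.5% of all genes). Between leukocytes and VSMCs it was 5 of 6, Pdgfb higher in leukocytes and 4 higher in VSMCs (41.1% and 38.6%). Against fibroblasts, endothelial cells had 3 members higher and 3 lower (27.7% and 33.7%), and leukocytes had 1 higher and 4 lower (38.7% and 39.2%). Between leukocytes and endothelial cells, Pdgfc was higher in leukocytes and 5 were higher in endothelium (34.8% and 33.1%).

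**Figure D1:**
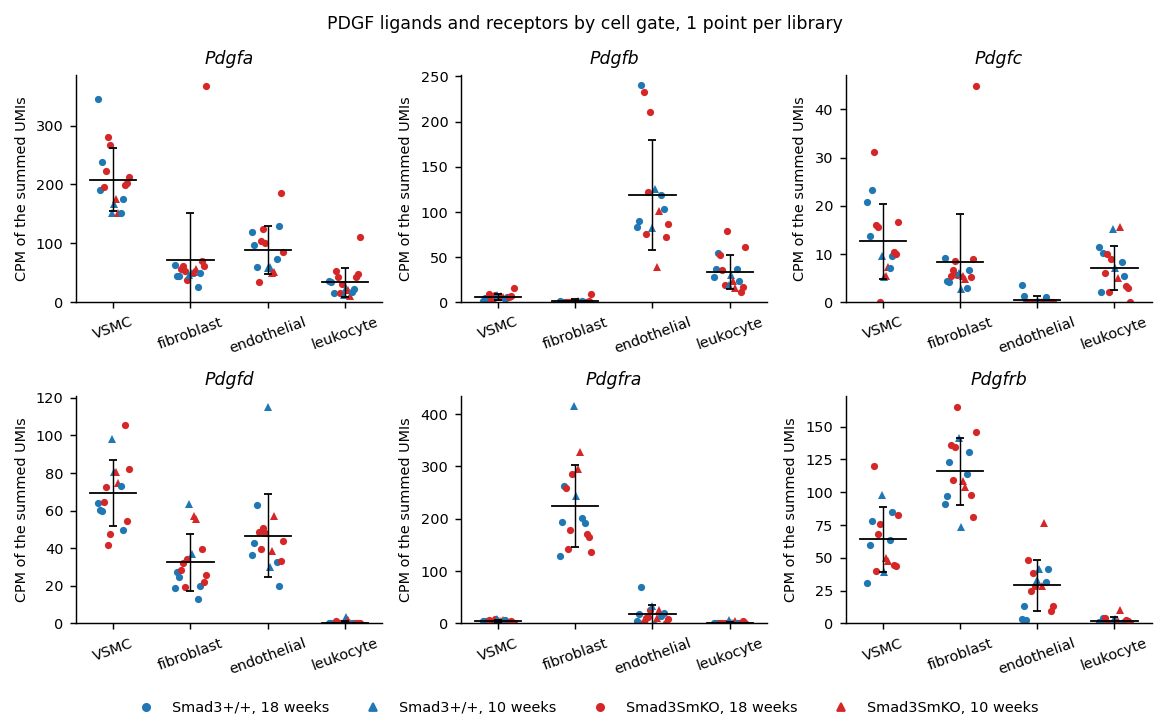
Level of each PDGF family gene (CPM of the gate's summed UMIs, linear axes that differ between panels) in the VSMC, fibroblast, endothelial and leukocyte gates. Each point is 1 library (16, or 15 for endothelium), coloured by labelled genotype and shaped by week, and the bar is the mean ± SD. Pdgfa and Pdgfd are highest in VSMCs, Pdgfb in endothelium and Pdgfra and Pdgfrb in fibroblasts, and a single fibroblast sum stands far above the rest for Pdgfa and Pdgfc.

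Of the ligands, Pdgfa, which encodes the chain that signals through the alpha receptor, had its highest share of RNA in VSMCs. Its level there was 207.96 ± 53.3 CPM (SD, n = 16), from 151 through a median of 198 to 345. The other gates reached 88.7 ± 40.1 in endothelium (n = 15), 71.3 ± 79.8 in fibroblasts and 34.0 ± 24.6 in leukocytes (n = 16 each). The VSMC sum was the higher in 15 of 16 libraries against fibroblasts, in 15 of 15 against endothelium and in 16 of 16 against leukocytes. The exception was replicate 7 of the 18-week Smad3SmKO group, whose fibroblast sum read 368 CPM and without which the fibroblast mean was 51.5 ± 11.1 (n = 15). VSMCs lay 2.50-fold above endothelium (95% interval 1.93 to 3.24, edgeR adjusted p = 1.97e-08), and endothelium 1.43-fold above fibroblasts (1.10 to 1.86, edgeR adjusted p = 0.0149). The last call was lost in 1 of 26 alternatives, the fit with no filter on low counts.

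Pdgfa also varied among VSMC sums with the digestion. The 7 sums of 30 min digestions held 249 ± 54.0 CPM, from 191 to 345, the 5 sums of 60 min at 18 weeks 188 ± 24.2, from 152 to 212, and the 4 sums of 10 weeks, also 60 min, 161 ± 12.0. The 30 min and 10-week sums did not overlap, the highest of 10 weeks being 176, but digestion, batch and week cannot be told apart here. Cells that met a Schwann cell gate, the glia of nerve fibres, held more still. In the 5 libraries with at least 10 such cells (85 cells in all), Pdgfa read 564 ± 166 CPM, from 353 to 805, on 254 UMIs.

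Pdgfb, whose chain binds both receptors, was highest in endothelium. It read 119 ± 60.7 CPM in endothelium (n = 15), from 38.8 through 102 to 240, and 33.9 ± 19.0 in leukocytes, from 11.4 through 29.0 to 79.3. VSMCs held 6.21 ± 3.24 CPM and fibroblasts 1.20 ± 2.24, or 0.647 ± 0.392 without replicate 7 of the 18-week Smad3SmKO group. The order endothelium, leukocytes, VSMCs, fibroblasts held in every library that had the sums, 15 of 15 or 16 of 16 for each pair. Endothelium lay 2.74-fold above leukocytes (95% interval 1.98 to 3.79, edgeR adjusted p = 3.15e-07), leukocytes 5.83-fold above VSMCs (4.03 to 8.43, edgeR adjusted p = 2.98e-12) and VSMCs 7.75-fold above fibroblasts (5.25 to 11.4, edgeR adjusted p = 2.80e-13). Platelets also carry PDGF-B, and of the platelet genes Pf4 reached 1181 CPM in pooled leukocytes, while Ppbp read 3.13, Treml1 0.770 and Gp9 0.0481. Pf4 is expressed by tissue macrophages too, and the part of platelets in the Pdgfb level was not tested.

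The fibroblast level of Pdgfb was low, and free RNA, released from broken cells into every droplet, was not corrected for. In pooled UMIs Pdgfb read 0.699% of its endothelial level in fibroblasts, or 0.590% without replicate 7 of the 18-week Smad3SmKO group. Of the 8 endothelial markers, 7 read less, from 0.0807% (Tie1) to 0.404% (Kdr), and Eng, an endoglin gene that fibroblasts may also express, read 20.2%. In VSMCs Pdgfb read 6.17% of its endothelial level, above the 8 markers, of which Eng at 5.82% and Esam at 4.25% came nearest. After thinning each cell to 2000 UMIs, 0.105% ± 0.130 of fibroblasts held a Pdgfb UMI (median depth 10760 UMIs before thinning), against 21.6% ± 8.66 of endothelial cells (4855 UMIs) and 1.63% ± 1.44 of VSMCs (10846 UMIs). Without thinning the shares were 0.878%, 39.9% and 5.33%. The part of free RNA in the fibroblast value was not tested.

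Pdgfc, a ligand that needs proteolytic removal of its CUB domain before it can signal, was sparse everywhere. It read 12.6 ± 7.79 CPM in VSMCs, from 0 through 10.3 to 31.1, on 842 UMIs over 16 libraries. Fibroblasts read 8.27 ± 9.93 (5.83 ± 1.94 without replicate 7 of the 18-week Smad3SmKO group, which read 44.9) and leukocytes 7.13 ± 4.59. Pdgfc was all but missing from cells that met the endothelial gate alone, with 5 UMIs in 1223 cells and 12 of 15 libraries at 0. The pooled UMIs of those 12 allow up to 0.551 CPM, counting error only. VSMCs lay 1.70-fold above fibroblasts (95% interval 1.30 to 2.21, edgeR adjusted p = 0.000473) and were higher in 13 of 16 libraries.

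Leukocytes were the gate whose place in the order of Pdgfc was uncertain. The log2 difference of leukocytes minus VSMCs was -0.51 (SE 0.26, edgeR adjusted p = 0.0702), which missed the threshold but was called in 19 of 26 alternatives, among them RLE size factors (-0.67, edgeR adjusted p = 0.0192) and the fit without replicate 7 of the 18-week Smad3SmKO group (-0.71, edgeR adjusted p = 0.00418). Leukocytes minus fibroblasts gave 0.25 (SE 0.25, 95% interval -0.26 to 0.76, edgeR adjusted p = 0.376), a sign opposite to that of the mean CPM. It became -0.02 with the 18-week libraries only, and was called at 0.78 with the Smad3+/+ libraries only. Neither order can be given. With all 63 sums the TMM scaling took an endothelial sum as its reference, and in each fit that left out 1 library it took a VSMC or fibroblast sum.

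Pdgfd, the second ligand with a CUB domain and one that acts through the beta receptor, was high in VSMCs and absent or nearly so from leukocytes. It read 69.3 ± 17.6 CPM in VSMCs, from 41.9 through 68.7 to 105, and 46.7 ± 22.0 in endothelium, from 19.8 through 42.9 to 115. Fibroblasts read 32.4 ± 14.9, from 12.9 through 28.0 to 63.6, and 32.9 ± 15.3 without replicate 7 of the 18-week Smad3SmKO group. VSMCs were the higher against fibroblasts in 16 of 16 libraries and against endothelium in 11 of 15. VSMCs lay 1.81-fold above endothelium (95% interval 1.47 to 2.23, edgeR adjusted p = 2.14e-06). Endothelium lay 1.28-fold above fibroblasts (1.04 to 1.57, edgeR adjusted p = 0.0363), a call lost in 8 of 26 alternatives. Among these were the fits without Smad3+/+ replicates 1, 3 or 4 or Smad3SmKO replicates 3 or 6 of 18 weeks, each left out alone (edgeR adjusted p from 0.0529 to 0.0850). Cells that met the leukocyte gate alone held 8 UMIs in 2946 cells, with 11 of 16 libraries at 0, whose pooled UMIs allow up to 0.277 CPM.

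Pdgfd also differed between the 10-week batch and the rest in fibroblasts. The 4 fibroblast sums of 10 weeks held 53.4 ± 11.3 CPM, against 26.5 ± 5.85 in the 7 sums of 30 min and 24.1 ± 9.98 in the 5 sums of 60 min at 18 weeks. The 10-week sums had the highest mean but overlapped the 18-week sums, the lowest of them reading 37.2 and the highest 18-week sum 39.8, and week and batch cannot be told apart. In VSMCs the same sets read 83.5 ± 10.1, 58.7 ± 10.6 and 72.9 ± 22.5 CPM.

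The receptor Pdgfra, which encodes the alpha receptor, was the member most restricted to 1 gate. Fibroblasts read 225 ± 78.6 CPM (n = 16), from 130 through 198 to 414 (230.8 ± 77.7 without replicate 7 of the 18-week Smad3SmKO group), and held 93.1% of the gene's 70731 UMIs in kept cells. Endothelium read 17.1 ± 17.2 (n = 15), VSMCs 4.71 ± 2.38 and leukocytes 1.65 ± 1.90 (n = 16 each). Every fibroblast sum lay above every sum of the other gates. Fibroblasts lay 16.6-fold above endothelium (95% interval 12.6 to 21.8, edgeR adjusted p = 2.59e-24), and the log2 difference to VSMCs was 5.59 (SE 0.18, edgeR adjusted p = 2.74e-31). After thinning to 2000 UMIs, 34.2% ± 9.04 of fibroblasts held a Pdgfra UMI, against 1.35% ± 1.18 of VSMCs and 0.461% ± 0.656 of leukocytes (median depths 10760, 10846 and 6233 UMIs). Without thinning the shares were 72.5%, 4.42% and 1.02%.

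The low Pdgfra values outside fibroblasts were set beside the 8 fibroblast markers, in pooled UMIs. In VSMCs Pdgfra read 2.41% of its fibroblast level, above Dpt and Pi16 (1.15% and 1.17%) and below the other 6, which went from 2.88% (Serpinf1) to 32.4% (Col1a2, a collagen gene that VSMCs also express). In endothelium it read 7.42%, above 7 of the markers and below Pi16 at 20.0%. In leukocytes it read 0.673%, on 28 UMIs, below all 8 markers, whose lowest was Col1a1 at 0.799%. The VSMC and endothelial values lay within the range of the markers. The part of fibroblast RNA in the VSMC, endothelial and leukocyte values was not tested. Fibroblast Pdgfra had a higher mean in the 10-week batch, 320 ± 71.9 CPM (n = 4), than in the 30 min (207 ± 62.0, n = 7) and 60 min sums (173 ± 25.2, n = 5) of 18 weeks, with overlap between the 10-week and the 30 min sums.

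Pdgfrb, which encodes the beta receptor of mural cells, was shared between fibroblasts and VSMCs. It read 116 ± 25.3 CPM in fibroblasts, from 73.6 through 112 to 165 (114 ± 24.8 without replicate 7 of the 18-week Smad3SmKO group), and 64.1 ± 24.5 in VSMCs, from 30.6 through 61.6 to 120. The fibroblast sum was the higher in 16 of 16 libraries, by 1.90-fold (95% interval 1.57 to 2.29, edgeR adjusted p = 3.86e-08). Endothelium read 29.0 ± 19.4 and leukocytes 2.09 ± 2.62. VSMCs lay 2.66-fold above endothelium (95% interval 2.05 to 3.46, edgeR adjusted p = 4.64e-09). In VSMCs Pdgfrb read 56.5% of its fibroblast level in pooled UMIs, above the 8 fibroblast markers, of which Col1a2 was the highest at 32.4%. After thinning to 2000 UMIs, 20.3% ± 3.61 of fibroblasts, 12.8% ± 5.29 of VSMCs and 0.642% ± 1.07 of leukocytes held a UMI (56.5%, 45.5% and 1.07% unthinned).

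Counted by molecules in place of shares, the fibroblasts weighed more, since they were 66.8% of kept cells and VSMCs 17.0%. Fibroblasts held 79.4% of the Pdgfrb UMIs and VSMCs 11.4%. Of the ligands, VSMCs held 38.8% of the Pdgfa UMIs and fibroblasts 46.4%, and of Pdgfd 38.8% and 51.3%. Of Pdgfc, fibroblasts held 62.9% and VSMCs 23.8%. Pdgfb was spread over other gates, with 35.7% in the 1226 endothelial cells, 21.4% in VSMCs and 21.2% in leukocytes. Digestion and sorting set how many cells of each type were caught, so these shares describe the libraries and not the aorta.

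**Figure D2:**
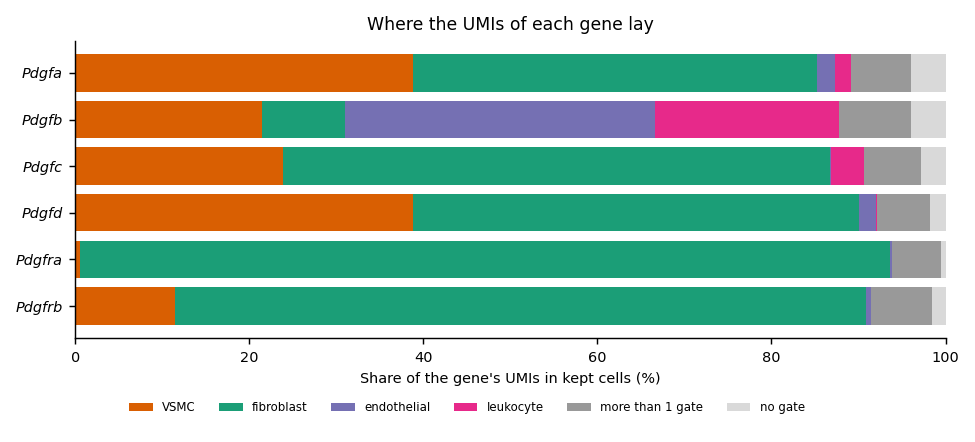
Share of each gene's UMIs in kept cells (percent, 0 to 100, all 16 libraries pooled) that lay in each gate, in cells meeting more than 1 gate and in cells meeting none. Fibroblasts hold 93.1% of Pdgfra and 79.4% of Pdgfrb UMIs, and only Pdgfb has its greatest share (35.7%) in endothelial cells.

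The endothelial values depend on how cells meeting more than 1 gate were treated. Of the 3303 cells with at least 2 UMIs of Pecam1 plus Cdh5, 62.9% also met another gate, and of 3357 leukocyte-gated cells 12.2% did. Counted in each gate they met, the endothelial mean of Pdgfb was 36.2 ± 17.0 CPM in place of 119, that of Pdgfra 104 ± 47.4 in place of 17.1 and that of Pdgfrb 93.1 ± 33.4 in place of 29.0. Pdgfrb then read higher in endothelium than in VSMCs (log2 difference 0.39, edgeR adjusted p = 0.0117) and Pdgfra higher in leukocytes than in VSMCs (2.05, edgeR adjusted p = 9.00e-10). Pdgfb in leukocytes and endothelium then differed by 0.07 (edgeR adjusted p = 0.797). The endothelial mean of Pdgfc was then 6.76 ± 5.82 CPM in place of 0.406, and the leukocyte mean of Pdgfd 6.57 ± 6.17 in place of 0.459. VSMC means moved little, Pdgfa to 207 ± 52.2 and Pdgfrb to 64.5 ± 24.7. The Pdgfc calls of endothelium against fibroblasts (-0.31, edgeR adjusted p = 0.257) and against leukocytes (leukocytes minus endothelium 0.47, edgeR adjusted p = 0.108) were lost. Whether such cells are doublets or cells with free RNA was not tested.

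Pericytes, which in other vessels carry Pdgfrb, were looked for with Vtn, Higd1b, Kcnj8 and other markers. The gates that were tried caught mostly cells with fibroblast RNA, so no level is given for pericytes. In the 7355 cells with at least 2 UMIs of Higd1b plus Kcnj8, a gate chosen after seeing the data, Pdgfrb read 132.5 ± 30.3 CPM, but Pdgfra read 220 ± 82.2, a value like that of fibroblasts. Endothelial sums held pericyte markers too, the 7 together reading 122 to 661 CPM in the 18-week controls and 214 to 2265 in the 10-week controls. VSMC sums of these groups read 319 to 623 and 315 to 1034. The part of pericytes in the endothelial Pdgfrb level was not tested.

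Ligand and receptor UMIs in the same VSMC were counted after thinning and set beside the product of the separate shares within libraries. Of the 8 pairs of a ligand and a receptor, Pdgfa with Pdgfrb was in 319 cells where the product gives 314, Pdgfd with Pdgfrb in 194 against 175 and Pdgfc with Pdgfrb in 36 against 22.8, above the product in 8 of 16 libraries. The other 5 pairs were in 2 to 26 cells, with ratios to the product from 0.859 (Pdgfa with Pdgfra) to 1.87 (Pdgfc with Pdgfra, 4 cells). In fibroblasts 6.90% held both receptors, against 6.37%. With few UMIs per cell these are descriptions.

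Over the 63 sums, the genes with a pattern most like each member (Pearson correlation of log2 TMM-scaled CPM plus 1 among 11149 genes) were listed. The sums share libraries and depth, so the values are descriptions. Pdgfa was nearest to Inpp5a, a phosphatase of inositol phosphates (0.83), Csrp1, a LIM protein of smooth muscle, Kif5b, Popdc2 and Shroom3. Pdgfb was nearest to Abi3 (0.92), Arap3, Cd93, Cd36 and Itga6, among which Cd93 and Cd36 are known from endothelial cells. Pdgfc had the weakest neighbours, led by Rnf150 (0.79), Fam110b, Adam33, Fam46a and Cib2. Pdgfd had the closest, led by Fam13c (0.96), Hoxb3os, Fermt2, Phldb2 and Foxc1. Pdgfra was nearest to Fbln1 (0.91), a feature named Ccl19, Dpt, Mmp2 and Pcolce, of which Dpt and Pcolce are on the fibroblast marker list. Pdgfrb was nearest to Sdc2 (0.94), Kirrel, Gpx8, Lhfp and the proteoglycan gene Bgn. Among members, Pdgfd and Pdgfrb were the most alike (0.80), and Pdgfb and Pdgfrb the most opposed (-0.65).

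The wider pathway was read from 6 lists of 69 genes, of which 67 were tested between fibroblasts and VSMCs. Of these 40 were higher in fibroblasts and 17 in VSMCs, with a median log2 difference of 0.38 against 0.09 over all genes (39% and 29% of all genes were called). Of 9 coreceptor and binding protein genes, 6 were higher in fibroblasts, among them Pdgfrl, a receptor-like gene (3.11, SE 0.18), and Nrp1, a coreceptor of VEGF and PDGF (2.98, SE 0.17). In the same list 3 were higher in VSMCs, among them Cspg4, the NG2 proteoglycan of mural cells that binds PDGF-A (-3.87, SE 0.19), and the integrin subunit gene Itgb3 (-2.69, SE 0.19). Of 5 proteases that process ligands, 4 were higher in fibroblasts, led by Pcsk6 (3.68, SE 0.26), and 1 in VSMCs.

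Downstream, the lists were mixed, beside 39% of all genes called higher in fibroblasts and 29% in VSMCs. Of 14 genes of the PI3K, phospholipase C and STAT arms, 11 were higher in fibroblasts and 2 in VSMCs, 1 of them Pik3cb, a catalytic PI3K subunit (-2.90, SE 0.15). Of 14 adaptors 6 and 4 were, and of 10 genes of the Ras and MAPK arm 4 and 4. Of 15 genes that restrain the receptors, 9 were higher in fibroblasts and 3 in VSMCs, the furthest being Slc9a3r1, a scaffold that binds the receptor tail (-1.73, SE 0.15). In a list of 11 relatives of the family, of which 9 were tested, 6 were higher in fibroblasts, led by Vegfd (4.12, SE 0.29) and the VEGF receptor gene Kdr (3.41, SE 0.47), and 1, Vegfb, in VSMCs (-0.98, SE 0.11). Kdr is also on the endothelial marker list. Its pooled level was only 1.63 CPM in fibroblasts and 0.119 in VSMCs (10 UMIs), against 403 in endothelium. The part of free RNA in its fibroblast value was not tested. In endothelium against VSMCs, 32 of the 67 pathway genes were higher and 21 lower (33.2% and 32.5% of all genes). In leukocytes against VSMCs it was 33 and 25 (41.1% and 38.6%).

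**Figure D3:**
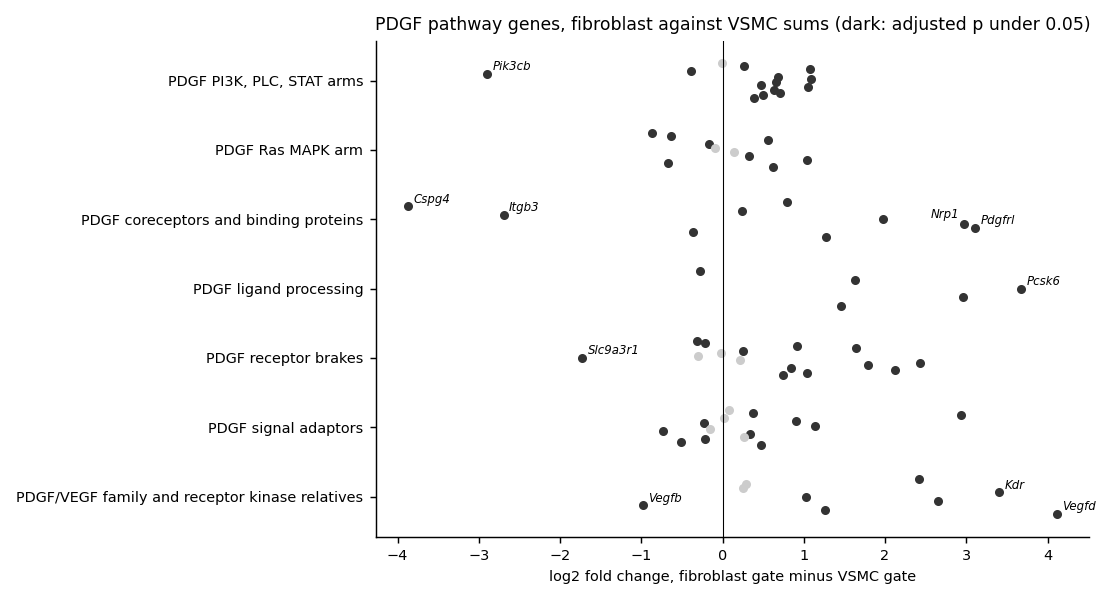
Log2 fold change of fibroblast minus VSMC sums for each tested gene of 7 PDGF-related lists (rows), 1 point per gene, dark where the edgeR adjusted p was under 0.05. Points right of 0 were higher in fibroblasts. The 5 called genes furthest from 0 on each side are named, from Cspg4 at -3.87 to Vegfd at 4.12.

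The genotype comparison asked whether the family responds to loss of Smad3 in VSMCs. Replicates 5 and 7 of the 18-week Smad3SmKO group formed batch 5, which held no control. With a batch term they inform the 18-week differences only through the filter, the scaling and the estimate of spread. In a fit with the labelled batch, 0 of 6 members were called in VSMCs at 18 weeks by edgeR and 0 by DESeq2, and 0 had an unadjusted p under 0.05 in either (all genes: 4 of 11711 called by edgeR, 0.0342%). The same counts of 0 were found for VSMCs at 10 weeks (0% of all genes called), for the difference between the effects at 18 and 10 weeks in VSMCs (0.00854%), and for the same 3 comparisons in fibroblasts, each with 0% of 14343 genes called. In simulated VSMC counts of this design with 11711 genes, 54% of genes changed by 1 on the log2 scale were called and 86% of those changed by 2, so a missed call does not show that a member was the same. The simulated counts held no shifts between batches and no spread particular to a gene. These shares may therefore overstate what could be found, above all for sparse members.

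Of the ligands in VSMCs at 18 weeks, Pdgfb had the largest difference. The Smad3+/+ libraries, replicates 1 to 5, read 1.97, 4.77, 2.91, 3.66 and 6.12 CPM, and the 7 labelled Smad3SmKO from 3.59 through 7.02 to 15.4. The groups overlapped, 4 of 7 libraries labelled Smad3SmKO lay above every control, and the batch means were higher in 4 of the 4 batches that held both labels. Over the 16 libraries, single VSMC sums held as few as 2 Pdgfb UMIs, so the agreement between batches rests on few molecules. The log2 fold change was 0.77 (SE 0.44, 95% interval -0.15 to 1.69, unadjusted p = 0.0955 and adjusted p = 1.00 by edgeR). The values rest on 83 UMIs in the controls and 268 in the libraries labelled Smad3SmKO, and replicate 7, the highest, held 130 of the latter. That library and replicate 5 formed batch 5, which held no control, and the batch term takes up their level. The log2 fold change therefore rests on fewer UMIs than the 268, those of the other libraries labelled Smad3SmKO. Without replicate 7 it was 0.76, a value that the batch term keeps near the first. Leaving out each library in turn gave 0.61 to 1.04. At 10 weeks the controls read 8.36 and 5.54 while those labelled Smad3SmKO gave 7.58 and 5.41 CPM, which overlapped (log2 fold change -0.06, SE 0.38).

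Pdgfa, whose VSMC values rest on 15435 UMIs, had group means closer than the spread between libraries. At 18 weeks the controls read 345, 191, 238, 152 and 176 CPM and the libraries labelled Smad3SmKO from 196 through 212 to 281. The log2 fold change was -0.02 (SE 0.17, 95% interval -0.37 to 0.33, edgeR adjusted p = 1.00), with 2 batches higher and 2 lower. At 10 weeks the controls read 152 and 166 CPM and the others 176 and 151 (0.05, SE 0.25). Pdgfc read 20.7, 13.7, 23.3, 7.15 and 9.53 CPM in the 18-week controls and from 0 through 15.5 to 31.1 in the others (-0.09, SE 0.31). Pdgfd read 64.1, 60.4, 59.6, 72.9 and 49.5 CPM in the controls and from 41.9 through 64.6 to 105 in the others (-0.12, SE 0.18, 95% interval -0.49 to 0.24). The groups overlapped for each of these 3 ligands, and for Pdgfa the controls spanned the wider range.

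At 10 weeks Pdgfd was the 1 member whose VSMC groups did not overlap, with 98.1 and 80.6 CPM in the controls and 80.4 and 74.9 in the other group. The log2 fold change was -0.18 (SE 0.22), and the nearest values differed by less than the controls did among themselves. In fibroblasts Pdgfa did not overlap at 10 weeks, 46.2 and 49.3 against 51.4 and 57.3 CPM (0.18, SE 0.59). Nor did it in endothelium, where the controls read 57.7 to 59.8 and the others 49.4 to 50.8 CPM (-0.21, SE 0.42). With so few libraries per group, groups can separate without any effect. The share of all genes that did so was not counted, so the lack of overlap sets no member apart.

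Of the receptors in VSMCs, Pdgfrb read 30.6, 59.4, 78.5, 63.7 and 85.0 CPM in the 18-week controls and from 39.7 through 68.2 to 120 in the libraries labelled Smad3SmKO. The log2 fold change was 0.07 (SE 0.34, 95% interval -0.66 to 0.81, edgeR adjusted p = 1.00), with 3 of 4 batches higher. At 10 weeks the controls, at 97.8 and 39.0, enclosed the others, at 50.0 and 47.7 CPM (-0.43, SE 0.40). Pdgfra in VSMCs, on 404 UMIs over 16 libraries, gave 0.29 (SE 0.48).

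**Figure D4:**
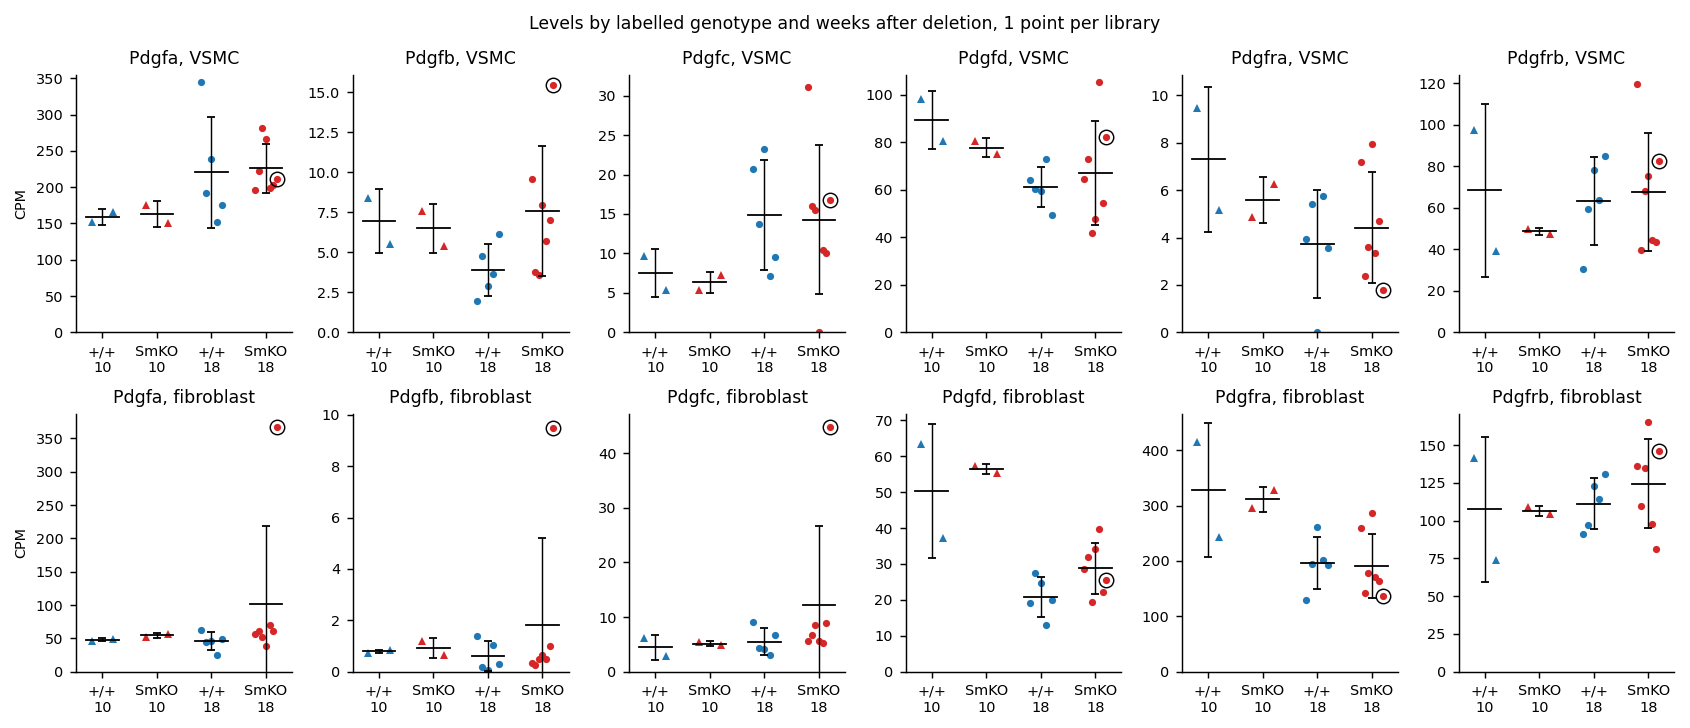
Level (CPM, axes from 0 that differ between panels) of each member in VSMC sums (top) and fibroblast sums (bottom) by labelled genotype and weeks after deletion. Each point is 1 library (2, 2, 5 and 7 per group), bars are mean ± SD, and the ring marks replicate 7 of the 18-week Smad3SmKO group, whose fibroblast sums read 368 CPM for Pdgfa, 9.49 for Pdgfb and 44.9 for Pdgfc. The groups of 18 weeks overlap in every panel.

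In fibroblasts, which the Cre is not meant to reach, Pdgfd came nearest to the threshold. The 18-week controls read 19.0, 27.4, 24.8, 12.9 and 19.9 CPM and the libraries labelled Smad3SmKO from 19.3 through 28.5 to 39.8. The groups overlapped, with 4 of 7 libraries labelled Smad3SmKO above every control and batch means higher in 4 of 4 batches. The log2 fold change was 0.40 (SE 0.19, 95% interval -0.02 to 0.81, unadjusted p = 0.0591 and adjusted p = 1.00 by edgeR), and from 0.30 to 0.47 on leaving out each library. At 10 weeks it was 0.18 (SE 0.29). The means of 18 weeks were 20.8 ± 5.62 (n = 5) and 28.8 ± 7.14 (n = 7) CPM.

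Among the other members in fibroblasts, the group means of Pdgfa, Pdgfb and Pdgfc were set by 1 library. Pdgfa averaged 45.5 ± 13.4 CPM in the 18-week controls and 101 ± 118 in the other group, but 56.9 ± 10.9 without replicate 7. Its log2 fold change was 0.23 (SE 0.38) with that library, which shares its batch with no control, and 0.24 without it. Pdgfb (0.04, SE 0.80, and 0.03 without it) and Pdgfc (0.37, SE 0.48, and 0.37 without it) behaved alike. The batch term takes up the level of that library, so these pairs of values could hardly differ and do not test its weight. Pdgfra read 130, 194, 262, 202 and 193 CPM in the controls and from 137 through 171 to 286 in the others (0.16, SE 0.16, 95% interval -0.18 to 0.51). Pdgfrb read 91.3, 96.8, 123, 114 and 130.9 CPM and from 81.0 through 135 to 165 (0.19, SE 0.22, 95% interval -0.29 to 0.67). For both receptors the groups overlapped and 2 and 3 of 4 batches were higher.

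Whether the label effect differed between VSMCs and fibroblasts at 18 weeks was tested in 1 fit of both gates, where 0 of 6 members were called by edgeR and by DESeq2 (0.00704% of 14196 genes by edgeR). Of the members, Pdgfd alone had an unadjusted p under 0.05 (log2 difference of the effects -0.58, SE 0.21, unadjusted p = 0.0140 and adjusted p = 1.00 by edgeR, unadjusted p = 0.0407 by DESeq2). Of all 14196 genes, 595 had an unadjusted p under 0.05 by edgeR, so this sets no member apart. For the other members the differences of the effects lay between -0.54 (Pdgfc, SE 0.57) and 0.35 (Pdgfb, SE 0.88).

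**Figure D5:**
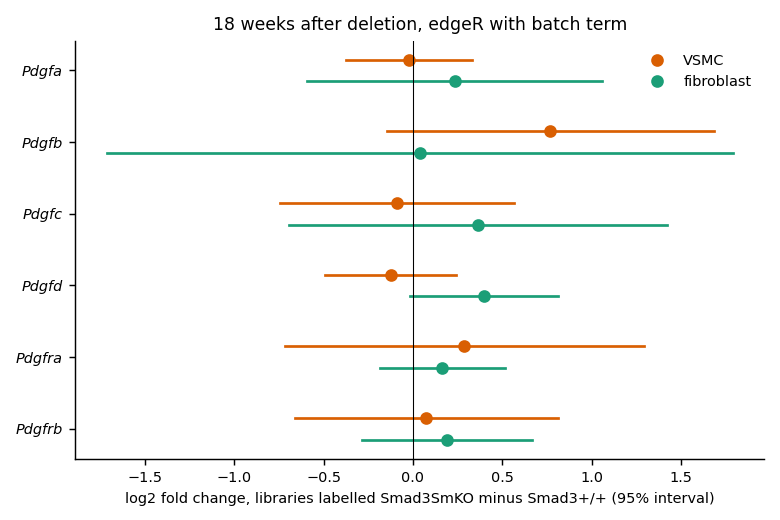
Log2 fold change (libraries labelled Smad3SmKO minus Smad3+/+, 18 weeks after deletion, edgeR with a batch term) of each member in VSMC and fibroblast sums, with 95% intervals as lines. Every interval crosses 0, and those of Pdgfb in VSMCs (0.77) and Pdgfd in fibroblasts (0.40) are the furthest to the right of 0 in their gates relative to their SE.

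In endothelium 5 members passed the filter on low counts and in leukocytes 3 did (Pdgfa, Pdgfb and Pdgfc). In both gates 0 were called at 18 or 10 weeks by edgeR or DESeq2, with 0% of 8094 and 0% of 8832 genes called by edgeR. No member there had an unadjusted p under 0.05 by edgeR, and 1 did by DESeq2, Pdgfrb in endothelium at 18 weeks (log2 fold change 1.41, SE 0.63, unadjusted p = 0.0243 and adjusted p = 1.00 by DESeq2, against 0.83, SE 0.65, unadjusted p = 0.228 by edgeR). Its controls read 3.65, 13.4, 3.00, 32.0 and 41.2 CPM and 6 libraries labelled Smad3SmKO from 9.43 to 48.7, on 1 to 58 UMIs each, and the groups overlapped. Pdgfb in endothelium, the gate where it was highest, read 83.9, 89.8, 240, 118 and 104 CPM in the 18-week controls and from 72.3 through 104 to 232.4 in 6 libraries labelled Smad3SmKO (log2 fold change 0.27, SE 0.27, 95% interval -0.30 to 0.84). Leukocyte Pdgfb gave 0.03 (SE 0.31) and leukocyte Pdgfa 0.61 (SE 0.36, 95% interval -0.15 to 1.37), with 5 of 7 libraries labelled Smad3SmKO above every control but only 2 of 4 batches higher.

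Of the 80 genes on the pathway lists, 0 were called between labels in any gate or week by edgeR. The tested genes numbered 71 in VSMCs, 77 in fibroblasts, 69 in endothelium and 61 in leukocytes, with 0 to 5 at an unadjusted p under 0.05 per comparison. The 5 were in VSMCs at 18 weeks, where 549 of all 11711 genes had such a p by edgeR. The smallest edgeR adjusted p was 0.160, in VSMCs at 10 weeks.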

How the data were processed

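Single-cell RNA-seq was made from 16 libraries of dissociated mouse thoracic aorta. The deposited values are UMI counts per gene and barcode, made by the authors with Cell Ranger against mm10 (version 6 per the submitters' processing notes, while the matrix headers name cellranger-4.0.0), with no normalization, and analysed by them in Seurat 4. Groups were taken from the sample labels.

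Barcodes with 600 to 6000 genes, 2000 to 50000 UMIs and at most 25% mitochondrial UMIs were kept. No free-RNA correction or doublet caller was run. Cells meeting exactly 1 gate were summed per library, and sums of at least 10 cells were tested with edgeR 4.0.16 in R 4.3.3 (filterByExpr, TMM scaling, quasi-likelihood test, Benjamini-Hochberg adjustment). Cell types were compared with the library as a block and labels with the batch as a term. The study tested single cells, and here libraries are the replicates. DESeq2 1.42.0 was an alternative, with RLE factors, no filter, other gates and cell limits, subsets of libraries and each library left out. Leaving out cells whose barcode is deposited in another library, and the Higd1b plus Kcnj8 gate, were chosen after seeing the data. For shares of cells, each cell was thinned to 2000 UMIs. Limits for a count of 0 (3 UMIs) cover counting error only.

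The members and the gene lists were chosen with earlier results of these data known. Pathway genes were named by the 5 largest called differences between fibroblasts and VSMCs in each direction, and genes alike by the 5 highest correlations per member. The tests were run on simulated counts, where the fibroblast and VSMC comparison (12124 genes) recovered 99% of genes changed by 1 and 100% of those changed by 2 on the log2 scale.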

Additional observations from a re-analysis of the deposited data

Results flagged for a closer look

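In groups of 4 to 10 libraries, a highest or lowest value was singled out by Dixon's criterion in 9 of 48 series of values. Chance singles out about 1 in 20 groups, and the series share libraries. In the library labelled Smad3SmKO, 18 weeks, replicate 7, fibroblast Pdgfa read 368 CPM (next 70.5), Pdgfb 9.49 (next 1.01) and Pdgfc 44.9 (next 8.97), in the sum of 192 cells whose VSMC list read 11764 CPM. Leukocyte Pdgfa of the same library read 112 CPM (next 53.6), from 10 cells. In Smad3+/+ replicate 3 at 18 weeks, endothelial Pdgfb read 240 CPM (next 118) and Pdgfra 69.0 (next 19.8). In leukocytes, Pdgfd read 0.334 CPM in Smad3+/+ replicate 1 at 18 weeks (next 0) and 1.36 in Smad3SmKO replicate 1 (next 0.463), and Pdgfra 3.82 in Smad3SmKO replicate 6 (next 1.497). These leukocyte series rest on 1 Pdgfd UMI in the whole control group, and on 4 of Pdgfd and 16 of Pdgfra in the Smad3SmKO group. The rate of 1 in 20 need not hold for such counts. The cause of these values was not tested.

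Outside the 4 gates, Pdgfa stood at 564 ± 166 CPM (SD, n = 5 libraries) in 85 cells with Schwann cell markers, a value found in cells that no comparison used.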

How the results depend on the processing

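Under alternatives other than leaving out a library, 712 values kept direction and side of the threshold, 27 reversed, 9 gained a call, 6 lost one and 21 shares of cells moved by more than the spread (without thinning). On leaving out 1 library these were 1065 kept, 23 reversed, 11 gained and 5 lost. No label difference became a call. The signs of label differences at 18 weeks, all uncalled, moved as follows. Without a batch term, VSMC Pdgfa gave 0.037, Pdgfc 0.17, Pdgfd 0.23, Pdgfra -0.34 and Pdgfrb -0.014, fibroblast Pdgfra -0.016 and leukocyte Pdgfb -0.024. With 60 min digestions alone, VSMC Pdgfa gave 0.45, Pdgfc 0.40 and Pdgfrb -0.63, fibroblast Pdgfra -0.12 and Pdgfrb -0.46, endothelial Pdgfb -0.28 and leukocyte Pdgfb -0.60. With 30 min alone, fibroblast Pdgfa gave -0.046 and Pdgfb -0.50, and without Smad3+/+ replicates 4 and 5, -0.034 and -0.40. With all barcodes, fibroblast Pdgfb gave -0.028. VSMC Pdgfc gave 0.054 with gates as written, 0.10 with doubled gate minimums (leukocyte Pdgfb -0.023) and 0.073 with at least 30 cells per sum. Leaving out each library gave, in VSMCs, Pdgfa -0.23 to 0.20, Pdgfc -0.42 to 0.087 and Pdgfrb -0.13 to 0.51, in fibroblasts Pdgfa -0.034 to 0.39 and Pdgfb -0.39 to 1.20, in endothelium Pdgfb -0.040 to 0.50 and in leukocytes Pdgfb -0.22 to 0.26. The cause was not tested.

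Between cell types, gates as written turned Pdgfrb of endothelium minus VSMCs to 0.39, Pdgfra of leukocytes minus VSMCs to 2.05 and Pdgfb of leukocytes minus endothelium to 0.071, and the 18-week libraries alone turned Pdgfc of leukocytes minus fibroblasts to -0.023. Leaving out 1 library called 5 to 6 members in leukocytes against VSMCs and in endothelium against fibroblasts. No paired analysis was possible because the replicate numbers follow accession order and the labels pair no libraries.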
